A study of Saccharomyces cerevisiae with 15 samples.

Results

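The proteasome genes described here are the budding yeast genes named PRE1 to PRE10, PUP1 to PUP3, RPN with a number, RPT1 to RPT6 and SCL1. The name rule found 33 of the 6256 genes on the arrays. Of these, 32 encode subunits of the particle, and RPN4 encodes a transcription factor. By the part each subunit builds, they are 7 genes of the alpha ring, 7 of the beta ring, 6 of the ATPase ring of the base, 4 other base proteins (RPN1, RPN2, RPN10 and RPN13) and 8 of the lid. The series set strand-specific RNA sequencing libraries against reference expression levels from 2 two-colour Agilent arrays, and only the arrays, both BY4741 in YPD, were analysed here. On each array, total RNA of Saccharomyces cerevisiae BY4741 in mid-log growth in YPD, a rich glucose medium, carried Cy3. Genomic DNA, whose strain the labels tag as the progenitor, carried Cy5. BY4741 is a haploid laboratory strain with deletions in HIS3, LEU2, MET17 and URA3. There is no second strain, condition or dye swap, so the comparisons are between genes within each array.

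The proteasome degrades proteins that carry ubiquitin chains. Its barrel-shaped core particle is built of alpha rings, which gate the entry, and beta rings, which hold the proteolytic sites. The regulatory particle on its ends consists of a base, whose ATPase ring unfolds substrates and threads them into the core, and a lid, whose Rpn11 subunit removes the ubiquitin. In budding yeast the genes share the transcription factor Rpn4, a short-lived protein that the proteasome itself degrades.

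Each gene was measured by 1 probe printed as 7 spots, so no division by gene length was made. The level of a gene is its log2 RNA/DNA ratio minus that of the median gene, which is 0 on this scale. All 33 proteasome genes had all 7 spots and an RNA signal above the floor on both arrays. The median gene had RNA intensities of 1135 and 1390 on arrays 1 and 2, where the negative control spots put the floors at 17.05 and 32.93, and DNA intensities of 4184 and 4558. The probes of the marker genes HIS3, LEU2, MET17 and URA3 had DNA signals near 0 on both arrays, with medians from -3.11 to 7.39. Both arrays lay on 1 slide, and the labels do not say that they came from separate cultures. The p-values therefore reflect the spread of 2 hybridisations alone, possibly a technical one, and having only 2 limits how precise any value is.

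All 33 proteasome genes lay above the median gene, from PUP3 to RPN3. Their limma adjusted p was at most 4.29e-04, at thresholds of an adjusted p under 0.05 and a log2 level of at least 1. Of all 6250 genes tested, 28.2% were called above and 31.2% below. By the adjusted p alone, without the size of 1, these shares were 47.1% and 47.2%. At a log2 level of at least 2, they were 12.4% and 20.4%, and 11 of the 33 proteasome genes were above. Centring on the genes with RNA past the floor on both arrays lowered every level by 0.195, and PUP3, at 0.867, then no longer reached the size of 1. The 32 subunits had a median level of 1.94 on array 1 and 1.90 on array 2, which is 3.77-fold over the median gene on average. They filled a narrow band. Among all genes ranked by ratio, the lowest subunit stood at percentile 73, the median subunit at 86.6 and the highest at 94. The SD of the log2 level was 0.403 over the 32 subunits, against 1.99 over the 5702 genes with RNA past the floor on array 1 and array 2. The band was not empty of other genes, since 1313 of the 6250 genes had a level within the range of the subunits.

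**Figure D1:**
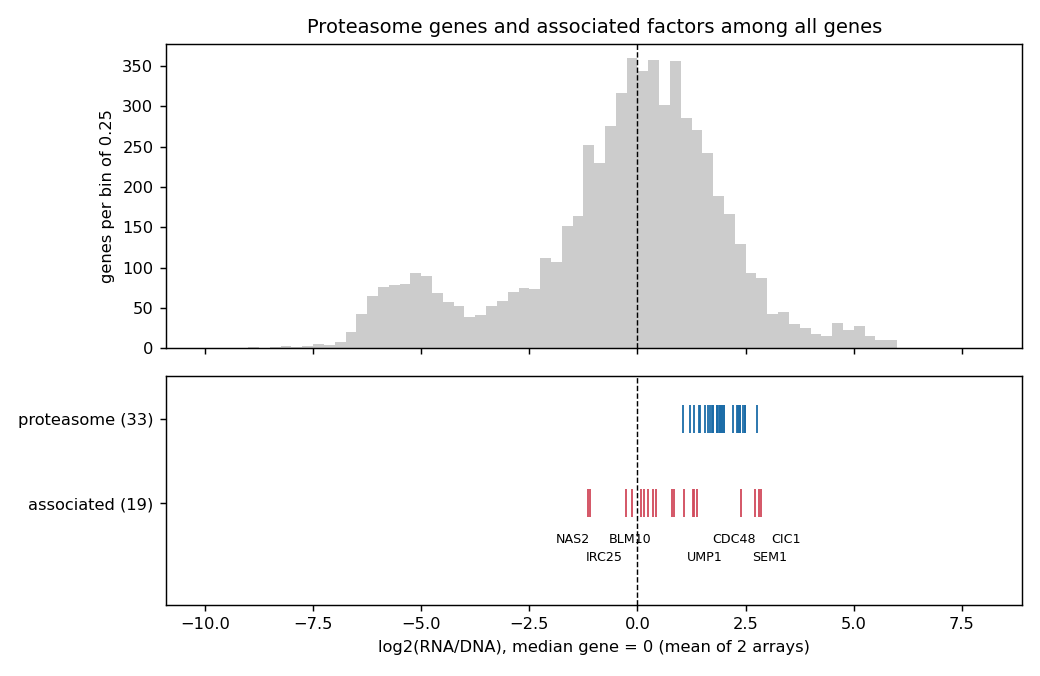
The upper panel counts all 6250 genes by log2 RNA/DNA level (mean of 2 arrays, median gene at 0, bins of 0.25), and in the lower panel each tick is a gene of the 33 proteasome genes or of the 19 associated factors. The proteasome genes sit together between 1.06 and 2.77, and the associated factors spread from -1.15 to 2.85.

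The 7 genes of the alpha ring spanned 0.66 on the log2 scale by ratio, the narrowest span of the 4 main subcomplexes, and all 7 were called above the median gene. In RNA alone the ring was not the narrowest, with a span of 0.75, against 0.68 for the beta ring, 0.60 for the ATPase ring and 0.88 for the lid. PUP2 (YGR253C) was the highest, at a log2 level of 2.52 on array 1 and 2.46 on array 2. Its RNA intensities were 7882 and 8760, and its DNA intensities were 5002 and 4984. PRE5 (YMR314W) followed at 2.46 and 2.23. These 2 genes lay above the other 5 on both arrays. SCL1 had a log2 level of 2.01 on both arrays. PRE9, which encodes the alpha subunit whose loss yeast survives, stood at 1.95 and 1.96, and PRE8 at 1.94 and 1.93. The lowest 2 were PRE6, at 1.97 on array 1 and 1.70 on array 2, and PRE10, at 1.85 and 1.81. The 5 genes from SCL1 to PRE10 thus had means between 1.83 and 2.01. PRE6 had the largest difference between the arrays of any subunit, 0.267 on the log2 scale, so its place among those 5 is not settled.

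The beta ring was wider by ratio, with a span of 1.37 on the log2 scale. Its 7 genes are described by ratio in 3 steps, which were drawn from these same values and did not overlap on either array. The upper step held PRE1 (YER012W), at log2 levels of 2.47 and 2.40 on arrays 1 and 2, PRE3 at 2.46 and 2.29, and PRE7 at 2.40 and 2.33. The middle step held PRE2, at 1.88 and 1.83, and PUP1, at 1.81 and 1.85. Below them were PRE4 (YFR050C), at 1.48 and 1.35, and PUP3 (YER094C), at 1.05 and 1.08, which were themselves apart. The 3 genes of the catalytic subunits did not share a step. PRE3, which encodes the caspase-like subunit, was in the upper one, while PUP1, of the trypsin-like subunit, and PRE2, of the chymotrypsin-like subunit, were in the middle one. The genes of the other 4 subunits, which have no active site, gave both the highest and the lowest ratio of the ring. RNA alone gave another order. PRE2, with RNA intensities of 7573 and 9509, was then above PRE3, with 6757 and 8131, on both arrays, and the lowest gene of the ring was PUP1, with 5480 and 6698.

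PUP3 was the lowest subunit of the whole particle by ratio, but not by RNA signal. Its RNA intensities were 6358 and 7547 on arrays 1 and 2, against medians over the 32 subunits of 6382 and 7798. Its DNA intensities of 11173 and 11245 were the highest of any subunit, against subunit medians of 5540 and 6089. PRE4 was alike in this respect, with RNA intensities of 6701 and 7890 and DNA intensities of 7620 and 9499.

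The 6 genes of the ATPase ring ran from RPT5 to RPT1 with a span of 0.77 on the log2 scale. RPT5 (YOR117W) had log2 levels of 2.25 and 2.17 on arrays 1 and 2, above the other 5 on both arrays. RPT4 stood at 1.98 and 1.91, RPT2 at 1.93 and 1.87, and RPT3 at 1.84 and 1.67. RPT6 had 1.59 and 1.54, and RPT1 (YKL145W) was the lowest at 1.52 and 1.37. All 6 products sit in 1 ring. The RNA signals ordered the ring differently. RPT1 had the highest RNA intensities of the 6, 6538 and 7613, together with the highest DNA intensities, 9040 and 9199. RPT5 had RNA intensities of 4612 and 5859 and the lowest DNA intensity of the 6 on array 1, 3520, against 4245 on array 2, where RPT4 was lower at 4095.

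Among the other base proteins, the large scaffolds were close together. RPN2 had log2 levels of 2.02 and 1.96 on arrays 1 and 2, and RPN1 had 1.92 and 1.90. RPN13 and RPN10, which encode ubiquitin receptors, lay lower. RPN13 had log2 levels of 1.76 and 1.68. RPN10 (YHR200W) had 1.23 and 1.22, the second lowest level of the 32 subunits. Its RNA intensities were 5370 and 6308, against DNA intensities of 7802 and 8261.

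By ratio, the lid had both the highest of the 32 subunits and the widest span, 1.46 on the log2 scale. RPN3 (YER021W), a structural lid subunit, was the highest, at log2 levels of 2.79 and 2.76 on arrays 1 and 2, or 6.82-fold over the median gene. Its RNA intensities were 5369 and 6832 and its DNA intensities 2700 and 3064. No other subunit had so low a DNA signal on either array. RPN8 (YOR261C), of the inactive partner of the deubiquitinase, had log2 levels of 2.46 and 2.53. RPN12 followed at 2.36 and 2.28, and RPN9 at 2.37 and 2.25. RPN7 stood at 1.93 and 1.91. RPN11 (YFR004W), of the deubiquitinase itself, had log2 levels of 1.74 and 1.76. Its RNA intensities of 4100 and 5197 were the lowest on array 1 and on array 2 among the 32 subunits. Those of its partner RPN8 were 7346 and 9837, so RPN8 was the higher of the pair by ratio and by RNA on both arrays. RPN6 had log2 levels of 1.67 and 1.60, and RPN5 (YDL147W) was the lowest of the lid at 1.36 and 1.26.

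**Figure D2:**
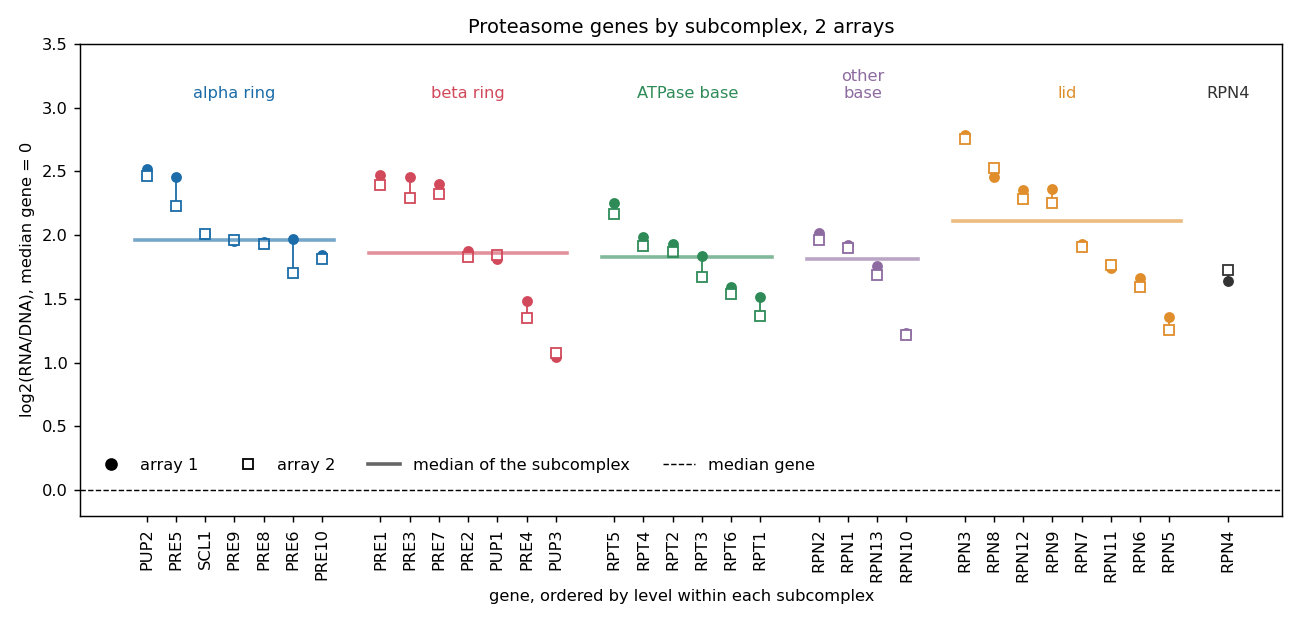
Each gene of the 5 subcomplexes and RPN4 is drawn at its log2 RNA/DNA level on array 1 (filled circle) and array 2 (open square), with a bar at the median of the subcomplex and the median gene at 0. All genes lie above 1 on both arrays, and most pairs of points nearly touch, with PRE6 the widest apart at 0.267.

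The second comparison asked which subunits stood apart from the middle of the particle. Each array was centred on the median of the 32 subunits, and genes were called with limma at an adjusted p under 0.05 and a log2 difference of at least 0.5. At these thresholds 8.37% of all genes were above the median subunit and 79.5% below it. Of the 32 subunits, 4 were above, 4 below and 24 not called. The 4 above were RPN3, by 0.85 (SE 0.033, adjusted p = 0.000238), PUP2, by 0.57 (SE 0.034, adjusted p = 0.000693), RPN8, by 0.57 (SE 0.046, adjusted p = 0.00158), and PRE1, by 0.51 (SE 0.035, adjusted p = 0.00103). The lid gave 2 of them, and each ring of the core gave 1. The 4 below were PUP3, at -0.86 (SE 0.039, adjusted p = 0.000333), RPN10, at -0.70 (SE 0.034, adjusted p = 0.000414), RPN5, at -0.61 (SE 0.039, adjusted p = 0.00081), and PRE4, at -0.51 (SE 0.044, adjusted p = 0.00185). The beta ring gave 2 of these, and the lid and the other base proteins 1 each. No gene of the ATPase ring was called in either direction. RPT1 came closest, at -0.48 (SE 0.047, adjusted p = 0.00269), and passed with gradient-corrected signals, at -0.591. PRE1, near the threshold, did not pass with those signals, at 0.454, or when arrays were centred on the mean subunit, at 0.5. PRE7 passed with the mean over spots, at 0.51 (adjusted p = 3.04e-03). By the adjusted p alone, without the size of 0.5, 10 subunits were above and 9 below, with 11.7% of all genes above and 85.2% below.

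In the order of the 32 subunits by ratio, 23 of the 31 pairs of neighbours overlapped, in that the higher array value of the lower gene reached the lower array value of the higher gene. RPN3 at the top was separated from PUP2 by 0.278 on the log2 scale. The next largest gap was between RPT5 and SCL1, 0.2 on the log2 scale, and it set a group of 10 genes apart from the rest. At the other end PUP3 was separated from RPN10 by 0.161. In between, each gene from PRE9 down to RPN13 overlapped its neighbours within that run, so their order is not settled by 2 arrays. The arrays differed by a median of 0.067 for a subunit on the log2 scale, and 26 of the 32 were higher on array 1.

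By subcomplex, the lid had the highest median by ratio. The members of a subcomplex are not replicates, and no test was run on the medians, so these values are a description. The lid had a median log2 level of 2.15 on array 1 and 2.08 on array 2 (mean 2.11 ± 0.05, SD, n = 2 arrays). The alpha ring had 1.97 and 1.96 (1.97 ± 0.005), the beta ring 1.88 and 1.85 (1.86 ± 0.02), the ATPase ring 1.89 and 1.77 (1.83 ± 0.08) and the other base proteins 1.84 and 1.79 (1.82 ± 0.03). The lid exceeded the alpha ring by 0.177 and 0.116, the beta ring by 0.268 and 0.232 and the ATPase ring by 0.26 and 0.309 on the log2 scale. The alpha ring exceeded the beta ring by 0.091 and 0.116, and the ATPase ring by 0.0833 and 0.192. Between the beta ring and the ATPase ring the sign differed between the arrays, -0.00765 on array 1 and 0.0768 on array 2. Every one of these differences is smaller than the span of the genes within any of the groups. The lid's lead also rested on how it was summarised, since the mean over its 8 genes exceeded that over the 7 alpha genes by only 0.00474. Genes above the median of all 32 subunits numbered 5 of 8 in the lid, 5 of 7 in the alpha ring, 3 of 7 in the beta ring, 2 of 6 in the ATPase ring and 1 of 4 among the other base proteins.

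With RNA alone, centred on the median gene of the RNA channel, the order of the subcomplexes was another. The core rings were then the highest, with median log2 RNA levels of 2.70 ± 0.07 for the alpha ring and 2.56 ± 0.02 for the beta ring (SD, n = 2 arrays). The lid had 2.36 ± 0.05, the other base proteins 2.34 ± 0.01 and the ATPase ring 2.10 ± 0.02. In log2 RNA level the lid thus lay below the alpha ring, at -0.423 and -0.262 on arrays 1 and 2, and below the beta ring, at -0.246 and -0.155. The lid stayed above the ATPase ring, by 0.244 and 0.287. The alpha ring exceeded the ATPase ring by 0.667 and 0.55, and the beta ring did so by 0.49 and 0.442. Genes above the median subunit in RNA level numbered 6 of 7 in the alpha ring and 5 of 7 in the beta ring, but 3 of 8 in the lid, 1 of 6 in the ATPase ring and 1 of 4 among the other base proteins. On both scales the alpha ring was above the beta ring and the ATPase ring, and the lid was above the ATPase ring.

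**Figure D3:**
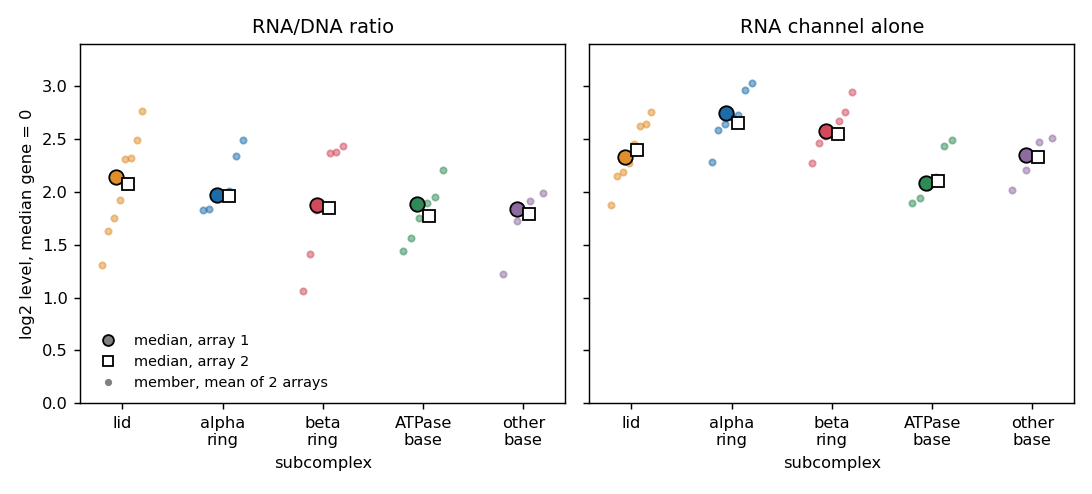
For each subcomplex the large symbols are the median log2 level on array 1 (filled circle) and array 2 (open square) and the small points its genes (mean of 2 arrays), by RNA/DNA ratio on the left and by RNA alone on the right, with the median gene at 0. By ratio the lid has the highest median, 2.11, and by RNA alone the alpha ring has, 2.70.

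The DNA signal differed more between subunits than the RNA signal did. RNA intensities spanned 2.3-fold on array 1 and 2.15-fold on array 2 from the lowest subunit to the highest, and DNA intensities spanned 4.14-fold and 3.67-fold. The SD over the 32 subunits was 0.312 for log2 RNA and 0.421 for log2 DNA. Over the 5702 genes above the floor the order was the reverse, 2.17 for log2 RNA and 0.773 for log2 DNA. Among all genes, the 32 subunits ran from percentile 83.4 to 92.2 in RNA, but from 18.4 to 95.4 in DNA. The DNA signal of 28 of the 32 was above that of the median gene. Across the 32 subunits the ratio correlated with the log2 DNA signal at -0.703 (Pearson r) and -0.596 (Spearman rho), a signal which is the denominator of the ratio. With log2 RNA it had an r of 0.341 and a rho of 0.452. Over the 5702 genes the r of the ratio was 0.0538 with DNA and 0.935 with RNA. These correlations are across genes that share arrays and dyes, and are given as a description. RNA and DNA signals themselves had an r of 0.419 over the subunits and 0.403 over the 5702 genes. Each signal was repeatable, with an r between the arrays over the 32 subunits of 0.985 for RNA, 0.975 for DNA and 0.983 for the ratio. What sets the DNA signal of a probe was not tested.

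**Figure D4:**
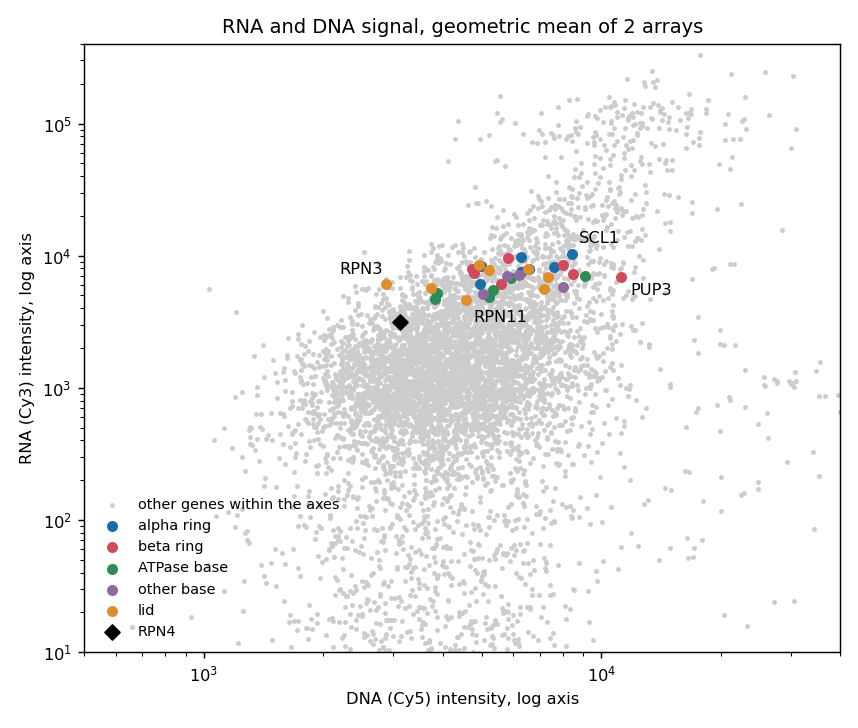
Each point is a gene at its DNA (Cy5) and RNA (Cy3) intensity, the geometric mean of 2 arrays on log axes, with the subunits coloured by subcomplex and RPN4 as a diamond; the axes take in 5913 of 6250 genes. The subunits lie in a band that is narrower in RNA than in DNA, from RPN3 on the left to PUP3 on the right. The RNA axis covers a wider range than the DNA axis, which makes the band look flatter.

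Setting RNA alone against the median subunit changed which genes were called. Each gene has its own probe, and RNA alone carries no correction for how strongly a probe responds. The p-values below, like those of the ratio above, measure how repeatable a probe was over 2 arrays. They do not cover differences between probes. At the same thresholds, at which 7.95% of all genes were above and 84.6% below, 1 of the 32 subunits was above and 3 were below. The gene above was SCL1 (YGL011C), by 0.54 in log2 RNA (adjusted p = 0.000915), with RNA intensities of 9425 and 11194, the highest of the 32 subunits. The genes below were RPN11, at -0.61 (adjusted p = 0.000718), RPT4, at -0.60 (adjusted p = 0.000832), and RPT6, at -0.54 (adjusted p = 0.00087). None of the 8 genes called by ratio was among these 4. RPN3, the highest by ratio, was at -0.22 in log2 RNA, and PUP3, the lowest by ratio, at -0.03. In all, 13 of the 32 subunits lay on opposite sides of the median subunit by ratio and by RNA alone. PRE1 was on the same side and close to the threshold on both, at 0.51 by ratio and 0.46 in log2 RNA. PRE5 likewise had 0.42 and 0.47, and RPN8 had 0.57 and 0.27. Against the median gene the scale made no difference to the calls, since RNA alone put all 33 proteasome genes above it, with 28.9% of all genes called above and 29.9% below.

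**Figure D5:**
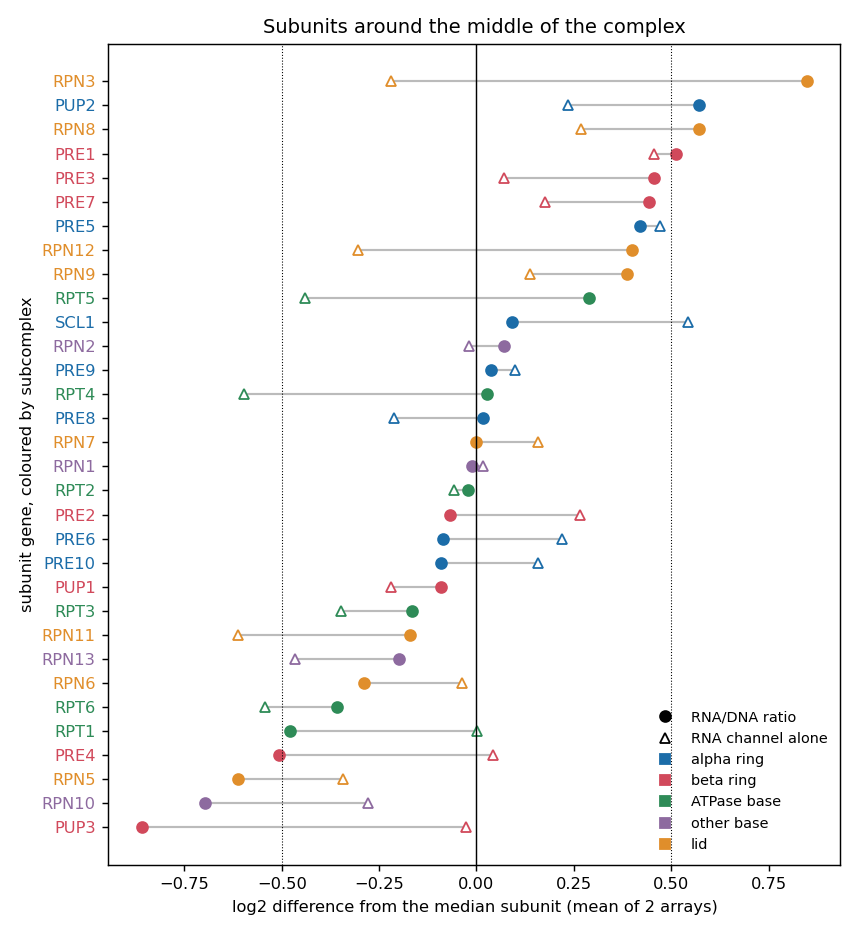
The 32 subunits are ordered by their log2 difference from the median subunit in RNA/DNA ratio (filled circles), with their difference in RNA alone beside it (open triangles), both as means of 2 arrays; dotted lines mark -0.5 and 0.5. The ratios run from 0.85 for RPN3 to -0.86 for PUP3, while both genes lie below 0 in RNA alone, at -0.22 and -0.03.

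RPN4 (YDL020C), the transcription factor, had log2 levels of 1.64 and 1.72 on arrays 1 and 2, within the range of the subunits. It was not called against the median subunit, at -0.24 (SE 0.049, adjusted p = 0.0187). In RNA alone it lay well below them, at -1.16 in log2 RNA (adjusted p = 0.00018). Its RNA intensities of 2954 and 3394 were below those of every subunit, and its DNA intensities were 3104 and 3134. RPN14 (YGL004C) shares the name but encodes a chaperone of the base, and the files list it under its systematic name only, so the name rule does not take it in. It had log2 levels of -2.15 and -2.01, or -2.08 on average, below the median gene (adjusted p = 0.000125). In log2 RNA it was at -0.96 and -0.89, short of the size of 1.

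Genes of proteins that assemble, extend or serve the proteasome were much more scattered than the 32 subunits. The list of 19 also holds SEM1, a lid subunit outside the name rule, which was called above. Of these 19 genes, 8 were called above the median gene, 2 below and 9 not called, at the shares of 28.2% above and 31.2% below over all genes. Their median log2 level was 0.84 on array 1 and 0.75 on array 2, against 1.94 and 1.90 for the subunits. In RNA alone, PBA1, at 0.53, IRC25, at -0.11, and NAS2, at -0.92, no longer reached the size of 1, and HUL5 was below, at -1.24. Of the 19, 11 lay below the lowest subunit by ratio, and 13 had lower RNA intensities than every subunit on both arrays. Most genes on the arrays lay there too, since the lowest subunit stood at percentile 73 of all genes by ratio and 83.4 in RNA. These counts are therefore no trait of the associated factors.

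The chaperones that build the core ring by ring were mixed. UMP1 (YBR173C), whose product is enclosed in the nascent core and degraded as it matures, had log2 levels of 2.40 on both arrays, as high as the upper step of the beta ring by ratio. Its RNA intensities, 5085 and 6597, were below those of every beta ring gene on both arrays, and its DNA intensities were 3365 and 3974. PBA1 and ADD66, whose products form a pair, had log2 levels of 1.12 and 1.06 for PBA1, which was called above but not when centred on genes above the floor (0.891), and of 0.84 and 0.86 for ADD66, which was not called. The other pair, IRC25 and POC4, was split by ratio. IRC25 had log2 levels of -1.08 and -1.14 and was called below, and POC4 had 0.84 and 0.75 and was not called. Their RNA intensities were alike, 1050 and 1287 for IRC25 and 1135 and 1382 for POC4. Their DNA intensities were not, 7778 and 8561 for IRC25 against 2069 and 2313 for POC4.

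The 4 chaperones of the base, RPN14, NAS2, NAS6 and HSM3, all lay below the 6 ATPase genes whose products they bind or guide. So did most genes on the arrays, since RPT1, the lowest of the 6 by ratio, stood at percentile 79.94 of all genes. NAS6, the highest of the 4 chaperones, had log2 levels of 0.15 and 0.14 from 6 spots, and HSM3 had 0.09 and 0.06. Neither was called against the median gene. NAS2 had log2 levels of -1.14 and -1.16 and was called below. The RNA intensities of the 4 chaperones ran from 584 for RPN14 to 2083 for NAS6 on array 1, and from 683 for NAS2 to 2673 for NAS6 on array 2. Those of the 6 ATPase genes were at least 4134 on array 1 and 5271 on array 2, both for RPT4, which stood at percentile 83.54 of all genes in RNA.

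SEM1 (YDR363W-A) encodes a small protein that is also a lid subunit, which the name rule does not take in. It had log2 levels of 2.82 and 2.81 and RNA intensities of 9307 and 12078. It was thus above RPN3, the highest of the 32 subunits, by ratio on both arrays. In RNA it was above every other lid gene on both arrays, and above SCL1 on array 2 only. With SEM1 as a member of the lid, a choice made after its value was seen, the 9 genes had a median of 2.3, and the lid exceeded the alpha ring by 0.339.

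Among the proteins that bring substrates or trim ubiquitin, CDC48, the ATPase that extracts ubiquitin-marked proteins from complexes, was the highest, at log2 levels of 2.72 and 2.73. The shuttle receptors RAD23, at 1.32 and 1.27, and DSK2, at 1.38 and 1.36, were called above, and DDI1, at 0.54 and 0.32, was not called. UBP6, of a deubiquitinase bound to the base, had log2 levels of 1.27 and 1.34 and was called above. HUL5, of a ligase that lengthens ubiquitin chains there, had -0.16 and -0.11 and was not called. Its DNA intensities of 1668 and 1790 were low, at percentile 2.256 of all genes, and its log2 RNA level was -1.24. The factors that cap or hold the particle were near the median gene and not called, with log2 levels of -0.26 and -0.25 for BLM10, which the files name BLM3, and 0.37 on both arrays for ECM29. STS1, which helps to bring proteasomes into the nucleus, had 0.17 and 0.29 and was not called. CIC1, named as an adaptor of the core and also known in ribosome assembly, was the highest of the 19 by ratio, at log2 levels of 2.88 and 2.82. Its DNA intensities of 2037 and 2463 were low, and in RNA alone it lay below the median subunit, at -0.51 on the log2 scale.

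In the RefSeq gene order, 2 pairs of subunit genes lay with 1 gene between them. The pair PRE4 and RPN12 had mean log2 levels of 1.41 and 2.32, and the pair RPT4 and RPN8 had 1.95 and 2.49. In neither pair did the ratios of the neighbours overlap between the arrays. In RNA alone the order of the first pair was reversed on both arrays, with RNA intensities of 6701 and 7890 for PRE4 and 5098 and 6392 for RPN12.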

How the data were processed

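The members and lists were chosen with earlier results of these data known. Of 15 samples, the 2 arrays were analysed, and the 13 sequencing libraries were not analysed here. Per the submitters' processing notes, images were read with Agilent Feature Extraction 10.5.1.1. The deposited intensity values have a fitted spatial background subtracted, and no dye normalization is recorded, per the file headers. The deposited multiplicative detrend signal is a fitted surface of intensity gradients, per the file headers. The background-subtracted intensity divided by this surface gave the authors' processed (gradient-corrected) intensity. Coordinates are left out.

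Spots with DNA well above background and neither channel saturated or non-uniform on both arrays were kept (43721 of 43792, 6250 genes). RNA was raised to 3 SD of the 153 negative control spots. A gene's level is the median log2(RNA/DNA) over its spots minus that of the median gene. Tests used an intercept-only model with empirical Bayes in limma 3.58.1 (R 4.3.3), with Benjamini-Hochberg adjustment over 6250 genes. The code was also run on simulated data with known shifts. That simulation gave most genes no shift, unlike these data, so it does not measure the error of the calls here. Python 3.11.15 with pandas 2.3.3, scipy 1.17.1 and numpy 2.4.6 gave the other values, and matplotlib 3.10.9 the plots. Systematic names were matched to RefSeq R64 locus tags for 5751 of 6250 genes and for all 33 proteasome genes, for gene order only. Every proteasome gene and all 19 associated genes are named. Alternatives changed the signal, background, reference channel, centring, normalization, spot summary and filter, floor, thresholds, test, arrays used and the definition of subcomplexes.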

Additional observations from a re-analysis of the deposited data

Results flagged for a closer look

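Spots for spike-in controls, outside all comparisons above, carried RNA-channel signal far above the negative control spots. The median background-subtracted RNA intensity over 320 spike-in spots was 2729 on array 1 and 4691 on array 2, against negative control medians of -4.53 and -5.84 and floors of 17.05 and 32.93. Spike-in signal was thus higher on array 2, as was the median gene's RNA signal, 1390 against 1135. No level above was scaled by the spike-ins.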

How the results depend on the processing

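All 33 proteasome genes were above the median gene under each alternative run, except that 32 were when arrays were centred on genes above the floor (PUP3 at 0.867) and by an ordinary test without shared variance (PRE6, adjusted p = 0.0579), and 11 at a log2 level of at least 2. Over all genes, 2944 were above and 2952 below by adjusted p alone, and 774 and 1278 at a log2 of at least 2. Against the median subunit, RNA alone left 1 subunit above, and adjusted p alone gave 10 above and 9 below. With an array left out, 3 to 6 subunits were past 0.5 above and 3 to 5 below, with no test, and medians were 1.96 to 1.97 for the alpha ring, 1.85 to 1.88 for the beta ring, 1.77 to 1.89 for the ATPase ring, 1.79 to 1.84 for the other base proteins and 2.08 to 2.15 for the lid. The alpha ring's median was 2.02 with gradient-corrected signals, 1.94 without background subtraction and 1.99 with the mean over spots. Centred on genes above the floor, medians were 1.77 for the alpha ring, 1.67 for the beta ring, 1.63 for the ATPase ring, 1.62 for the other base proteins and 1.92 for the lid. As means over members, levels were 2.06, 1.9, 1.71 and 2.06 for the alpha ring, beta ring, other base proteins and lid. In RNA alone, medians were 2.7, 2.56, 2.1, 2.34 and 2.36 for the alpha ring, beta ring, ATPase ring, other base proteins and lid. Lid minus alpha ring was 0.0905 with gradient-corrected signals, 0.00474 as means over members and -0.343 in RNA alone. Lid minus beta ring was 0.158 as means and -0.2 in RNA alone, and lid minus ATPase ring was 0.32 with the mean over spots. Alpha minus beta ring was 0.155 with gradient-corrected signals, 0.143 in RNA alone and 0.153 as means. Alpha ring minus ATPase ring was 0.608 in RNA alone and 0.255 as means, and beta ring minus ATPase ring 0.466 and 0.102. The last turned to -0.00765 without array 2 and was 0.0768 without array 1. With SEM1 in the lid, chosen after seeing the data, the lid's median was 2.3 and its excess 0.339 over the alpha ring, 0.442 over the beta ring and 0.477 over the ATPase ring. Against the median subunit, RNA alone turned the sign of RPN3 (-0.22), RPN12 (-0.305), RPN2 (-0.0188), PRE8 (-0.211), RPT5 (-0.44), RPT4 (-0.596), PRE4 (0.0437), RPN1 (0.018), RPT1 (0.00018), PRE6 (0.219), PRE10 (0.157), PRE2 (0.267) and RPN7 (0.157). RPN7, near 0, also turned with gradient-corrected signals (0.00741) and the mean over spots (0.0121). Against the median gene, RNA alone turned POC4 (-0.00416), HSM3 (-0.242) and BLM10 (0.78), and centring on genes above the floor turned NAS6 (-0.0515) and HSM3 (-0.123). The cause of these changes was not tested. No paired analysis was possible because the arrays form a single group, with no second group to pair them with, beyond the RNA/DNA ratio taken within each array. The planned search of promoters for the proteasome control element was not run.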
